A study of Mus musculus with 32 samples.

Results

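Genes of the chemokine and cytokine families, 10 in all, were followed across the study: the CC chemokines Ccl2, Ccl7 and Ccl5, the CXC chemokines Cxcl1, Cxcl2, Cxcl5, Cxcl10 and Cxcl12, the cytokine Il6 and the macrophage growth factor Csf1. They were picked by their gene name in the deposited count table, which lists 56748 genes, and all 10 were among the 16984 genes with counts high enough to test. RNA was sequenced from primary white adipocytes of mouse subcutaneous fat, labelled wild type, after siRNA against Nfe2l1, Atf3 or both (siNfe2l1, siAtf3, siNfe2l1+siAtf3) or a scrambled siRNA (scramble). Each siRNA was combined with 400 µM cholesterol carried on methyl-β-cyclodextrin for 6 h or with a control treatment, which gave 8 groups of 4 libraries and 32 in all. Whether the control cells received the carrier is not stated, so an effect of cholesterol and one of its carrier cannot be told apart. Libraries are numbered as biological replicates, but nothing says that they came from separate mice or cultures, so p-values measure the spread between these libraries. The study asked how Nfe2l1 and Atf3 affect the handling of cholesterol in adipocytes.

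Chemokines are small secreted proteins that draw leukocytes along a gradient, and they act through receptors on the arriving cells. CC chemokines such as Ccl2 and Ccl7 mainly call monocytes through Ccr2, CXC chemokines of the Cxcl1, Cxcl2 and Cxcl5 kind mainly call neutrophils through Cxcr2, and interferon-inducible CXC chemokines such as Cxcl10 call T cells through Cxcr3. In white fat, adipocytes and the stromal cells between them can release these signals, and Ccl2 is known for bringing monocytes into obese fat, where they become macrophages. Il6 is a cytokine that signals through Il6ra and Il6st, and many of these genes are classical targets of the transcription factor NF-kB. Nfe2l1 (also Nrf1) is a transcription factor held at the endoplasmic reticulum that is known to sense cholesterol and proteasome stress, and Atf3 is a stress-induced transcription factor of the ATF/CREB family.

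The count table placed the genes on GRCm39 as follows. The monocyte-calling Ccl2 (ENSMUSG00000035385, chr11:81926397-81928279, plus strand) and Ccl7 (ENSMUSG00000035373, chr11:81936538-81938351, plus strand) were neighbours, and Ccl5 (ENSMUSG00000035042, chr11:83416604-83421344, minus strand) lay on the same chromosome. Cxcl5 (ENSMUSG00000029371, chr5:90907219-90909483, plus strand), Cxcl1 (ENSMUSG00000029380, chr5:91039100-91040974, plus strand) and Cxcl2 (ENSMUSG00000058427, chr5:91051730-91053797, plus strand) lay in a cluster with Cxcl10 (ENSMUSG00000034855, chr5:92494497-92496748, minus strand) farther along. Il6 (ENSMUSG00000025746, chr5:30218112-30224979, plus strand), Cxcl12 (ENSMUSG00000061353, chr6:117145496-117158328, plus strand) and Csf1 (ENSMUSG00000014599, chr3:107648364-107667785, minus strand) stood elsewhere. All 10 are listed as protein-coding. Ccl2 overlapped the gene Gm17268 on the opposite strand, which had 0 to 1 counts per library against 936 to 6184 for Ccl2. Cxcl10 overlapped Art3 on the opposite strand, which had 199 to 422 counts per library against 246 to 4710 for Cxcl10, and the sources used here do not state whether counting used the strand, so a part of the low Cxcl10 counts cannot be told apart from Art3 reads. The other 8 members overlapped no other gene. Cxcl1, Cxcl2 and Cxcl3 are close paralogs whose reads counting could share, so their values are less certain than those of Ccl2 or Il6 in that respect.

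Because the members include known NF-kB targets, the DNA before their starts was read from RefSeq (build GRCm38.p6, not the build of the counts) for 6 of the 10 members. Each sequence is the 250 bases before the annotated start, 5′ to 3′ on the gene's strand, with matches to the NF-kB consensus on either strand in capitals. Cxcl1 and Cxcl2 are shown as the pair with the largest increases after cholesterol, Csf1 as a member with a match that did not pass the test after cholesterol in scramble cells, and Cxcl12 as the member that fell. The Cxcl1 stretch was chr5:90890995-90891244, plus strand, the Cxcl2 stretch chr5:90903649-90903898, plus strand, the Csf1 stretch chr3:107760470-107760719, minus strand, and the Cxcl12 stretch chr6:117168285-117168534, plus strand.
Cxcl1: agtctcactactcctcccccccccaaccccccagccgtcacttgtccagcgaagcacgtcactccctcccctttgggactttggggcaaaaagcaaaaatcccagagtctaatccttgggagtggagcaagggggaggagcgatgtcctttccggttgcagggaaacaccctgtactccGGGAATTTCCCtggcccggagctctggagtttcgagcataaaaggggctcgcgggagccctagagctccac
Cxcl2: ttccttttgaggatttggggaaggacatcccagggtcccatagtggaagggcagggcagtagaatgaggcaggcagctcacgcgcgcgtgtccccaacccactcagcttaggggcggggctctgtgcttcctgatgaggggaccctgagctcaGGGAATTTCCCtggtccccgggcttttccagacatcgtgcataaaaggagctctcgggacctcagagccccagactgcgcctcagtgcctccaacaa
Csf1: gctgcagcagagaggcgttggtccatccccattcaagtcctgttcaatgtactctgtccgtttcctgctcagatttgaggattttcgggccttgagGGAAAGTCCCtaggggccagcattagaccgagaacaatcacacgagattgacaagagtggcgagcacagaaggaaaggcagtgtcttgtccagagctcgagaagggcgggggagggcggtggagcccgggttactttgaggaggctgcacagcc
Cxcl12: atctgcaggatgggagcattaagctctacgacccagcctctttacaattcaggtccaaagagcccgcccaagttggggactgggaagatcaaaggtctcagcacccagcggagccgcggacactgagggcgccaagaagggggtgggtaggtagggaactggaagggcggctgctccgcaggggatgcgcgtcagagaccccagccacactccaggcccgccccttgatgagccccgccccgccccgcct

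Cxcl1 and Cxcl2 carried the same 11-letter run GGGAATTTCCC, which holds a match on each strand, with the first match at position -71 in Cxcl1 and -97 in Cxcl2, counted from the start. Csf1 carried 1 match, at position -154, and Cxcl12 carried none in this window. Of the members not printed, Il6 (chr5:30012864-30013113, plus strand) had 1 match at position -44, and Cxcl10 (chr5:92348890-92349139, minus strand) had 2 separate runs. In all 5 of the 6 members searched had a match, and 7.25% of the 32851 promoters of this length in the table had one. The motif was picked because many members are known NF-kB targets, so their higher share is no test. A match to the AP-1 motif TGANTCA occurred in Il6 and Cxcl10, and in 6.75% of all promoters. An antioxidant-element match (TGACNNNGC) occurred in Cxcl10, overlapping its AP-1 match, and in 10.2% of all. No member matched the CRE motif TGACGTCA, which 1.55% of all promoters held. Matches were counted on both strands and describe letters only, without showing binding.

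Across the 32 libraries the deposited counts summed to 23457384 to 33828418, and 3 counts corresponded to 0.0837 to 0.141 CPM (counts per 1000000, scaled with TMM factors of 0.886 to 1.10). Nfe2l1 stood at 120.0 ± 17.4 CPM in siNfe2l1 cholesterol libraries and 814 ± 43.3 CPM in scramble cholesterol libraries (SD, n = 4 each), and its siNfe2l1 levels were 14.7% of scramble under cholesterol and 15.2% under control treatment. Atf3 stood at 40.9 ± 7.88 CPM in siAtf3 cholesterol libraries, against 398 ± 129 CPM in scramble cholesterol libraries, or 10.3% of scramble. Under control treatment, where Atf3 was low in scramble cells (26.8 ± 2.43 CPM), siAtf3 left 37.8%. In cells given both siRNAs the fitted levels were 19.3% of scramble for Nfe2l1 and 12.8% for Atf3 under cholesterol. Under control treatment both siRNAs left Nfe2l1 at 114 ± 1.91 CPM, against 487 ± 6.02 CPM in scramble. Silencing of Atf3 was weaker there, with 15.3 ± 1.41 CPM for both siRNAs and 10.1 ± 0.780 CPM for siAtf3 alone, against 26.8 ± 2.43 CPM in scramble. No library went against its label. All 12 adipocyte markers checked were present at 1 CPM or more in some library. All 8 lymphocyte markers stayed under 1 CPM in every library, whereas the 13 macrophage markers were all detected, so RNA of macrophage-expressed genes was present. A principal component analysis of 1000 genes parted cholesterol from control libraries along its leading axis, which held 80.2% of their variance.

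Cholesterol loading of scramble cells raised 7 of the 10 members, namely Cxcl2, Cxcl1, Il6, Ccl7, Ccl2, Cxcl10 and Ccl5, and lowered Cxcl12 (edgeR quasi-likelihood test, adjusted p under 0.05 over 16984 genes). Csf1 and Cxcl5 did not pass the test. Of all genes tested, 32.9% were called higher and 32.3% lower. The median log2 fold change was 1.80 over the 10 members and 2e-04 over all genes.

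The neutrophil-calling pair moved most. Cxcl1 read 436, 292, 381 and 245 CPM in scramble cholesterol libraries 1 to 4, against 3.28, 4.83, 2.85 and 3.60 CPM in scramble control libraries. Cxcl2 read 88.8, 53.8, 79.1 and 48.8 CPM in scramble cholesterol libraries, against 0.249, 0.275, 0.733 and 0.548 CPM in scramble control libraries, where 6 to 19 reads were counted. Every cholesterol library lay far above every control library, and libraries 1 and 3 held the highest values of both genes in cholesterol. The log2 fold change was 7.20 ± 0.44 for Cxcl2 (standard error, adjusted p = 1.51e-13), a 147-fold difference, and 6.54 ± 0.34 for Cxcl1 (adjusted p = 7.07e-15), a 92.8-fold difference. Cxcl5, a chemokine that also calls neutrophils, did not pass the test. It read 6.70, 5.45, 6.08 and 5.47 CPM in scramble cholesterol libraries, against 4.93, 12.4, 6.25 and 5.87 CPM in scramble control libraries, and the groups overlapped. Its log2 fold change was -0.32 ± 0.28, with a 95% interval of -0.89 to 0.25 (adjusted p = 0.323).

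The monocyte attractants rose together. Ccl2 read 262, 161, 205 and 164 CPM in scramble cholesterol libraries, against 38.8, 81.0, 44.6 and 55.9 CPM in scramble control libraries. Ccl7 read 262, 159.6, 186 and 141 CPM in scramble cholesterol libraries, against 42.0, 60.5, 39.7 and 50.4 CPM in scramble control libraries. Neither pair of groups overlapped, and library 1 was the highest cholesterol library for both genes. The increases were 3.88-fold for Ccl7 (log2 1.96 ± 0.20, adjusted p = 2.97e-09) and 3.60-fold for Ccl2 (log2 1.85 ± 0.20, adjusted p = 7.94e-09). Ccl5, which draws T cells and other leukocytes, was low throughout. It averaged 5.97 ± 1.44 CPM in scramble cholesterol libraries and 2.87 ± 0.440 CPM in scramble control libraries (SD, n = 4 each), a 2.07-fold difference without overlap (log2 1.05 ± 0.16, adjusted p = 6.37e-07).

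Il6 read 42.9, 27.2, 36.9 and 28.5 CPM in scramble cholesterol libraries, against 5.06, 8.37, 5.21 and 6.49 CPM in scramble control libraries. All cholesterol libraries lay above all control libraries, and the difference was 5.38-fold (log2 2.43 ± 0.22, adjusted p = 2.36e-10). The T-cell attractant Cxcl10 read 177, 128, 138 and 132 CPM in scramble cholesterol libraries, against 33.6, 42.5, 37.0 and 57.9 CPM in scramble control libraries. The groups did not overlap, and the difference was 3.37-fold (log2 1.75 ± 0.22, adjusted p = 9.29e-08).

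Cxcl12, the Cxcr4 ligand that stromal cells make to hold progenitors and leukocytes in place, went the other way. It read 212, 240.2, 237 and 269 CPM in scramble cholesterol libraries, against 449, 503, 497 and 460.1 CPM in scramble control libraries. The lowest control library lay well above the highest cholesterol library, and the log2 fold change was -0.996 ± 0.06 (adjusted p = 4.21e-17). Csf1, the growth factor on which macrophages depend, averaged 1014 ± 35.4 CPM in scramble cholesterol libraries and 1034 ± 14.8 CPM in scramble control libraries (SD, n = 4 each). The groups overlapped, and the 95% interval of its log2 fold change was -0.13 to 0.07 (adjusted p = 0.616), whereas with library totals alone, where the median of all genes shifted by -0.122, it was called lower (log2 -0.15, adjusted p = 0.0113).

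**Figure D1:**
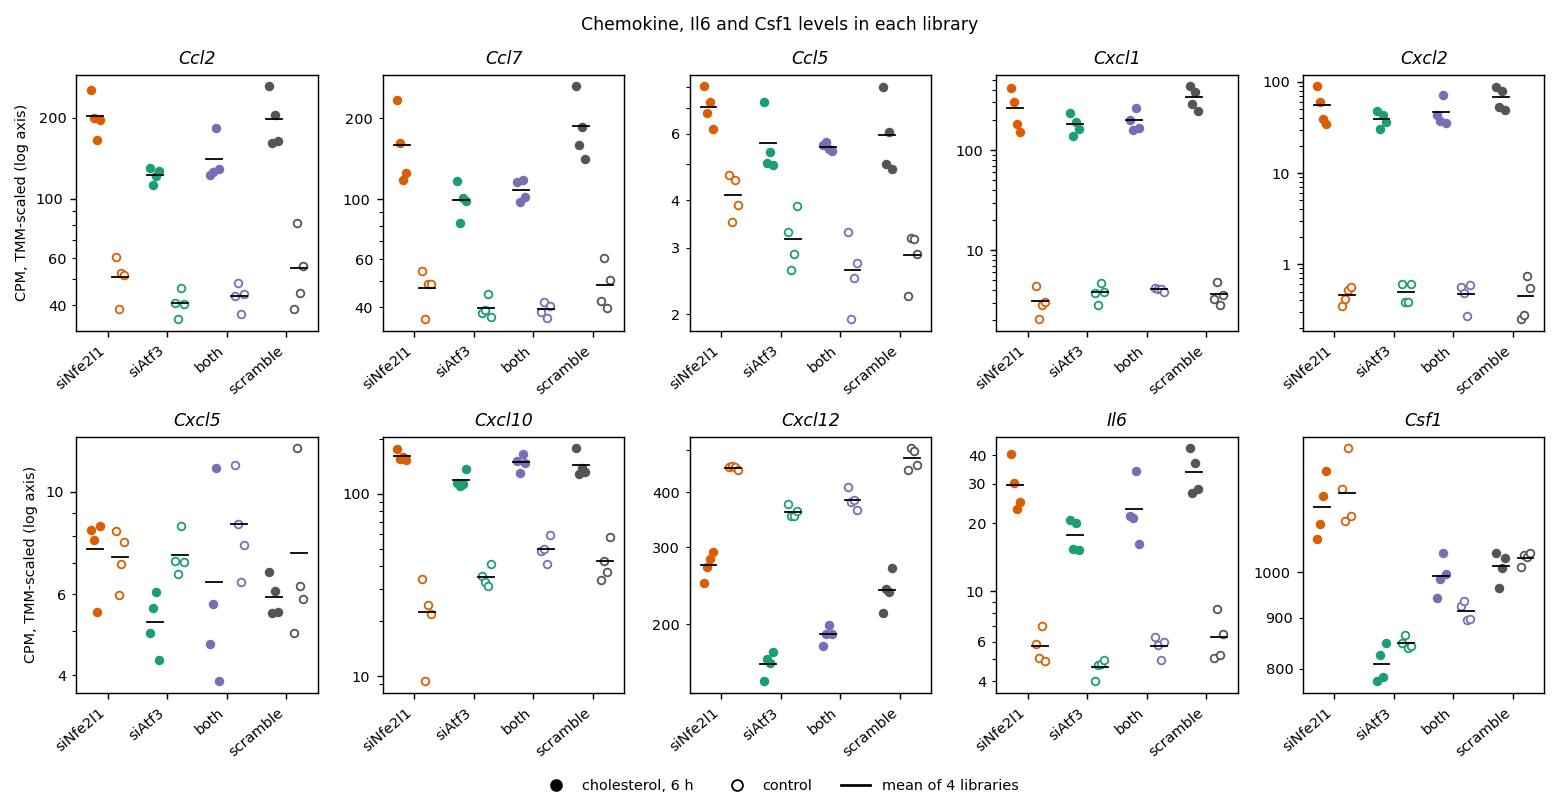
Level of each member in every library, in CPM on log axes whose range differs between panels, with cholesterol libraries left of control libraries within each siRNA. Cxcl1 and Cxcl2 separate the treatments most widely, Cxcl12 lies lower in cholesterol, and Csf1 and Cxcl5 overlap between treatments in scramble cells.

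Per length, the members spread over a wide range (RPKM, the CPM divided by the gene length in kilobases). In scramble cholesterol libraries Ccl7 averaged 234 ± 66.8 RPKM, Csf1 192 ± 6.70 RPKM, Cxcl1 180.5 ± 45.9 RPKM and Ccl2 174 ± 41.6 RPKM (SD, n = 4 each). These 4 were the most abundant members, and Cxcl10 (64.0 ± 10.1 RPKM), Cxcl2 (32.7 ± 9.36 RPKM), Cxcl12 (29.3 ± 2.84 RPKM) and Il6 (13.9 ± 3.04 RPKM) followed. Ccl5 and Cxcl5 were the least abundant at 6.22 ± 1.5 RPKM and 3.18 ± 0.317 RPKM. In scramble control libraries Csf1 led at 196 ± 2.79 RPKM, with Ccl7 (60.1 ± 11.8 RPKM), Cxcl12 (58.4 ± 3.27 RPKM) and Ccl2 (48.4 ± 16.4 RPKM) next, and Cxcl2 was last at 0.218 ± 0.112 RPKM.

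The same 7 members rose and Cxcl12 fell after cholesterol in cells given siNfe2l1, siAtf3 or both siRNAs. Of all genes, 31.1% were called higher and 29% lower with siNfe2l1, 29.4% and 28.6% with siAtf3, and 29.8% and 28.9% with both. The log2 fold change of Cxcl1 was 6.41 ± 0.34 with siNfe2l1, 5.58 ± 0.33 with siAtf3 and 5.61 ± 0.33 with both, and that of Il6 was 2.37 ± 0.22, 1.95 ± 0.23 and 2.01 ± 0.22 in the same order of siRNAs. Ccl7 gave 1.76 ± 0.20 with siNfe2l1, 1.33 ± 0.20 with siAtf3 and 1.47 ± 0.20 with both. Cxcl10 had its widest difference with siNfe2l1 (2.84 ± 0.23), where the control libraries were low, and gave 1.76 ± 0.22 with siAtf3 and 1.57 ± 0.21 with both. In cells given both siRNAs Csf1 was also called higher (log2 0.12 ± 0.05, adjusted p = 0.0334), a call that was lost with DESeq2 size factors (adjusted p = 0.0661), the DESeq2 Wald test (0.0609), library totals alone (0.462) or no filter on low counts (0.158), and without control library 3 (0.0791), control library 4 (0.0812) or cholesterol library 3 (0.0883). With siAtf3 the 4 cholesterol libraries of Cxcl5 (4.31 to 6.06 CPM) lay below the 4 control libraries (6.62 to 8.44 CPM), but the gene did not pass the test (adjusted p = 0.14).

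Levels of other cell types' markers moved with cholesterol. The summed macrophage markers spanned 165 to 189 CPM in scramble cholesterol libraries and 280.2 to 327 CPM in scramble control libraries, with 11 of 13 lower and 0 higher. The summed fibroblast and adipose precursor markers spanned 7752 to 8711 CPM in scramble cholesterol libraries and 25289.9 to 26543 CPM in scramble control libraries, with 10 of 11 tested lower and 0 higher. The collagen genes Col1a1, Col3a1 and Col1a2 made up most of this sum in every group. They averaged 3148, 1872 and 1844 CPM in scramble cholesterol and 9861, 7333 and 5687 CPM in scramble control, so the sum mainly describes collagen RNA. Endothelial markers were lower for 9 of 10, summing to 381 to 479 CPM in cholesterol and 714 to 769 CPM in control, and smooth muscle and pericyte markers were lower for 6 and higher for 3 of 10. Mesothelial markers summed to 31.3 to 43.0 CPM in scramble cholesterol libraries and 9.23 to 10.1 CPM in scramble control libraries, with 6 of 8 under 1 CPM everywhere. Krt19 made up nearly all of that rise, averaging 32.96 CPM in cholesterol and 6.31 CPM in control. Lrrn4 averaged 3.48 and 2.91 CPM and Wt1 0.0773 and 0.444 CPM in the same order, so the sum describes Krt19 rather than the list. Adipocyte markers were higher for 11 and lower for 1 of 12, summing to 17538 to 19609.6 CPM in scramble cholesterol libraries and 12931 to 13482 CPM in scramble control libraries. Neutrophil and mast cell markers summed to 5.85 to 7.68 CPM in scramble cholesterol libraries and 8.92 to 10.2 CPM in scramble control libraries, with 1 higher and 4 lower of 5 tested. The lymphocyte sum stayed at 0.207 to 0.328 CPM in scramble cholesterol libraries and 0.270 to 0.373 CPM in scramble control libraries. The part of these shifts in the changes of the members was not tested. In bulk RNA, fewer cells of a type and less RNA per cell cannot be told apart.

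**Figure D2:**
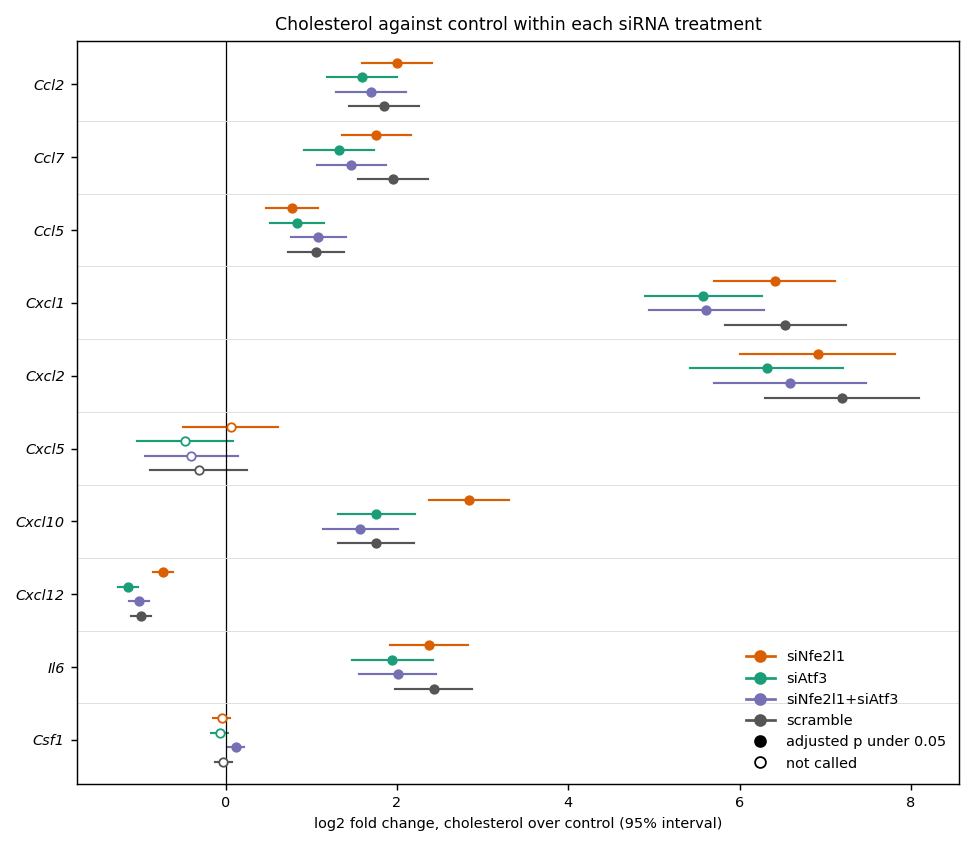
Log2 fold change, cholesterol over control, of each member within each siRNA, with 95% intervals; values right of 0 were higher in cholesterol. Cxcl1 and Cxcl2 lie between 5.58 and 7.20 in all 4 siRNA treatments, Cxcl12 lies left of 0 in all 4, and Cxcl5 crosses 0.

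Silencing Atf3 lowered 7 of the 10 members in cholesterol-loaded cells and raised none. Those lower were Il6, Ccl7, Cxcl1, Cxcl2, Ccl2, Cxcl12 and Csf1, while Cxcl10, Cxcl5 and Ccl5 did not pass the test. Of all genes, 27.4% were called lower and 23% higher in this comparison. The median log2 fold change was -0.62 over the members and -0.0156 over all genes tested.

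Il6 read 20.7, 15.4, 20.0 and 15.2 CPM in siAtf3 cholesterol libraries, against 42.9, 27.2, 36.9 and 28.5 CPM in scramble cholesterol libraries. Ccl7 read 117, 81.5, 101 and 98.7 CPM in siAtf3 cholesterol libraries, against 262, 159.6, 186 and 141 CPM in scramble cholesterol libraries. Cxcl1 read 233, 140.0, 190.0 and 163 CPM in siAtf3 cholesterol libraries, against 436, 292, 381 and 245 CPM in scramble cholesterol libraries. For each of these genes every siAtf3 library lay below every scramble library. Il6 stood at 52.7% of the scramble level (log2 -0.93 ± 0.20, adjusted p = 0.000307), Ccl7 at 53.2% (log2 -0.91 ± 0.19, adjusted p = 0.000274) and Cxcl1 at 53.6% (log2 -0.90 ± 0.24, adjusted p = 0.00317).

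Cxcl2 read 48.4, 30.5, 42.8 and 36.1 CPM in siAtf3 cholesterol libraries, against 88.8, 53.8, 79.1 and 48.8 CPM in scramble cholesterol libraries. The groups were separated by a narrow gap, and the log2 fold change was -0.78 ± 0.25 (adjusted p = 0.0108). Without scramble cholesterol library 1, the highest of its group, the value was -0.60 and no longer passed the test (adjusted p = 0.0591). Ccl2 read 129.8, 112, 122 and 127 CPM in siAtf3 cholesterol libraries, against 262, 161, 205 and 164 CPM in scramble cholesterol libraries, without overlap, and stood at 61.9% (log2 -0.69 ± 0.19, adjusted p = 0.0036).

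Cxcl12 and Csf1, which cholesterol had not raised in scramble cells, were lower as well. Cxcl12 read 148, 167, 163 and 173 CPM in siAtf3 cholesterol libraries, against 212, 240.2, 237 and 269 CPM in scramble cholesterol libraries (log2 -0.56 ± 0.06, adjusted p = 4.64e-10). Csf1 read 777, 825, 785 and 848 CPM in siAtf3 cholesterol libraries, against 1045, 965, 1010.4 and 1034 CPM in scramble cholesterol libraries (log2 -0.33 ± 0.05, adjusted p = 6.64e-07). The groups of neither gene overlapped, and the libraries within each group lay close together. Among the members that did not pass, Cxcl10 read 114, 111, 113 and 137 CPM in siAtf3 cholesterol libraries, against 177, 128, 138 and 132 CPM in scramble cholesterol libraries. Those groups overlapped through siAtf3 library 4, and the 95% interval of the log2 fold change was -0.70 to 0.15 (adjusted p = 0.277), though Cxcl10 was called lower in a fit of these 8 libraries alone (adjusted p = 0.0437). For Ccl5 the interval was -0.38 to 0.23 (adjusted p = 0.702), and for Cxcl5 -0.76 to 0.41 (adjusted p = 0.644).

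Under control treatment, siAtf3 lowered Cxcl12 and Csf1, where 18.2% of all genes were called lower and 18.1% higher. Cxcl12 averaged 361 ± 10.4 CPM in siAtf3 control libraries and 477 ± 26.8 CPM in scramble control libraries (SD, n = 4 each; log2 -0.41 ± 0.06, adjusted p = 4.46e-07). Csf1 averaged 849 ± 10.8 CPM in siAtf3 control libraries and 1034 ± 14.8 CPM in scramble control libraries (log2 -0.29 ± 0.05, adjusted p = 1.1e-05). Neither pair of groups overlapped. Ccl2 had a log2 fold change of -0.43 ± 0.20 (adjusted p = 0.096) and was called lower without scramble control library 1 (adjusted p = 0.0316). Il6 had one of -0.44 ± 0.25 (adjusted p = 0.182), although the siAtf3 control libraries of Il6 (4.00 to 4.99 CPM) lay below the scramble control libraries (5.06 to 8.37 CPM), and it was called lower in a fit of these 8 libraries alone (adjusted p = 0.00795). The fibroblast and adipose precursor sum spanned 17493 to 18211 CPM in siAtf3 control libraries and 25289.9 to 26543 CPM in scramble control libraries, with 8 of 11 lower and 1 higher. Macrophage markers summed to 393 to 486 CPM in siAtf3 control libraries and 280.2 to 327 CPM in scramble control libraries, with 5 of 13 higher and 1 lower, and endothelial markers were lower for 4 of 10. Lyz2, averaging 188 CPM in siAtf3 control and 91.3 CPM in scramble control, made up much of that macrophage difference. The part of these markers in the lower Cxcl12 and Csf1 was not tested.

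Whether siAtf3 changed the size of the cholesterol response was tested as an interaction. None of the 10 members passed it with edgeR or DESeq2, and 6.21% of all genes were called higher and 9.13% lower. At an unadjusted p under 0.05 it held 1 member, and 4863 of the 16984 genes tested. That 1 was Ccl7, with a difference between log2 responses of -0.63 ± 0.28 (unadjusted p = 0.0307, adjusted p = 0.127). For Cxcl1 the difference was -0.96 ± 0.48, with a 95% interval of -1.96 to 0.04 (adjusted p = 0.194), and for Il6 -0.48 ± 0.32, with an interval of -1.14 to 0.18 (adjusted p = 0.343). For Cxcl2, whose control counts were few, the interval ran over -2.89 to 1.12. The test on levels under cholesterol was passed by these genes, and the test on the size of the response was not.

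Marker sums also differed in this comparison. The fibroblast and adipose precursor sum spanned 4171 to 4583 CPM in siAtf3 cholesterol libraries and 7752 to 8711 CPM in scramble cholesterol libraries, with 9 of 11 lower and 0 higher. Macrophage markers spanned 185 to 223 CPM in siAtf3 cholesterol libraries and 165 to 189 CPM in scramble cholesterol libraries, with 2 higher and 4 lower of 13. Lyz2 (83.3 against 50.5 CPM in scramble) and Mpeg1 (44.2 against 31.7 CPM) set the higher sum. Most others averaged lower, such as Cd68 (25.4 against 32.6 CPM) and Csf1r (4.77 against 9.41 CPM). Adipocyte markers spanned 16561 to 18813 CPM in siAtf3 cholesterol libraries and 17538 to 19609.6 CPM in scramble cholesterol libraries, with 1 higher and 8 lower of 12. Endothelial markers were lower for 7 and higher for 1 of 10, and smooth muscle and pericyte markers lower for 6 and higher for 2 of 10. Their part in the lower levels of the members was not tested.

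**Figure D3:**
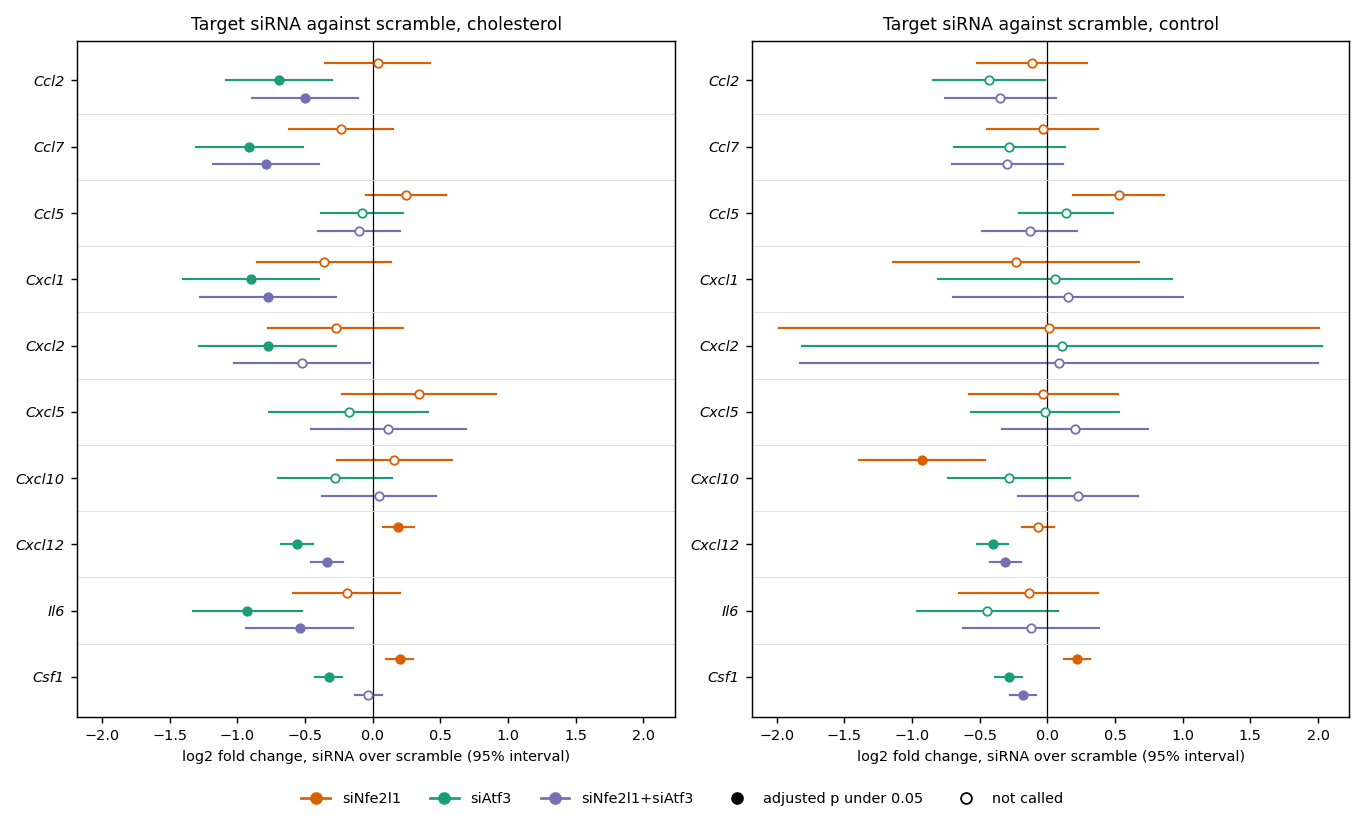
Log2 fold change, siRNA over scramble, of each member under cholesterol and under control treatment, with 95% intervals; values left of 0 were lower with the siRNA. Under cholesterol the siAtf3 values of Il6, Ccl7 and Cxcl1 lie between -0.93 and -0.90, and the siNfe2l1 values of Csf1 and Cxcl12 lie right of 0.

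Giving both siRNAs lowered 5 members in cholesterol-loaded cells relative to scramble, namely Ccl7, Cxcl1, Il6, Ccl2 and Cxcl12, and raised none. Of all genes, 23.9% were called lower and 20.8% higher. Csf1 did not pass here (95% interval -0.13 to 0.07, adjusted p = 0.631). Cxcl2 had a log2 fold change of -0.52 ± 0.24 (adjusted p = 0.0866), and passed without library 3 of the cells given both siRNAs (log2 -0.79, adjusted p = 0.00939), without scramble cholesterol library 4 (0.0419) and with the replicate block (0.0379).

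Ccl7 read 116, 97.7, 118 and 103 CPM in cholesterol libraries with both siRNAs, against 262, 159.6, 186 and 141 CPM in scramble cholesterol libraries. Cxcl12 read 179, 189.9, 199.6 and 190.5 CPM in cholesterol libraries with both siRNAs, against 212, 240.2, 237 and 269 CPM in scramble cholesterol libraries. The groups of neither gene overlapped, though how many of all genes lacked overlap was not counted. The log2 fold changes were -0.79 ± 0.19 for Ccl7 (adjusted p = 0.00143) and -0.34 ± 0.06 for Cxcl12 (adjusted p = 1.09e-05). Cxcl1 read 202, 160.0, 265 and 166 CPM, Il6 21.6, 21.2, 33.9 and 16.2 CPM and Ccl2 123, 125, 183 and 129 CPM in cholesterol libraries with both siRNAs. For all 3 genes library 3 was the highest of its group and reached into the scramble cholesterol range. The log2 fold change was -0.77 ± 0.24 for Cxcl1 (adjusted p = 0.0112), -0.54 ± 0.19 for Il6 (adjusted p = 0.0245) and -0.50 ± 0.19 for Ccl2 (adjusted p = 0.0333). Without scramble cholesterol library 1 none of these 3 passed (adjusted p 0.0505 for Cxcl1, 0.119 for Il6 and 0.177 for Ccl2), which left 2 members lower. Without scramble cholesterol library 3, Il6 (adjusted p = 0.0625) and Ccl2 (adjusted p = 0.0647) did not pass, which left 3. The same 3 members were left without library 1, 2 or 4 of the cells given both siRNAs, where the adjusted p ran up to 0.111 for Il6 and 0.0973 for Ccl2. Il6 and Ccl2 also missed the threshold with library totals alone (0.0866 for Il6 and 0.12 for Ccl2), with no filter on low counts (0.058 and 0.0733) and in a fit of these 8 libraries alone (0.127 and 0.0758).

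Markers moved here too: 9 of 11 fibroblast and adipose precursor markers were lower and 1 higher with both siRNAs, and 6 of 13 macrophage markers were higher and 0 lower, and their part was not tested.

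Relative to siNfe2l1 alone, adding siAtf3 under cholesterol lowered 4 members, namely Ccl7, Ccl2, Cxcl12 and Csf1, with 20.9% of all genes called lower and 15.7% higher. Ccl7 spanned 97.7 to 117.738 CPM with both siRNAs and 117.743 to 232 CPM with siNfe2l1, so that the groups all but touched (log2 -0.55 ± 0.19, adjusted p = 0.0241). Csf1 spanned 941 to 1047 CPM with both siRNAs and 1080.2 to 1265 CPM with siNfe2l1 (log2 -0.23 ± 0.05, adjusted p = 0.000241). Cxcl12 fell by 0.53 ± 0.06 on the log2 scale (adjusted p = 3.7e-09) and Ccl2 by 0.54 ± 0.19 (adjusted p = 0.0276). Cxcl1 (log2 -0.41 ± 0.24, adjusted p = 0.196) and Il6 (log2 -0.35 ± 0.19, adjusted p = 0.171) did not pass against siNfe2l1, whose own libraries were wide. Il6 passed without library 3 of the cells given both siRNAs (log2 -0.56, adjusted p = 0.0168), as did Cxcl5 (log2 -0.64, adjusted p = 0.0409), and Cxcl1 passed without siNfe2l1 library 4 (log2 -0.60, adjusted p = 0.0415), as did Ccl5 (log2 -0.41, adjusted p = 0.0341). The Ccl2 and Ccl7 calls did not hold with library totals alone (adjusted p 0.0621 for Ccl2 and 0.0511 for Ccl7), with no filter on low counts (0.0754 and 0.0637) or in a fit of these 8 libraries alone (0.0578 and 0.12). Neither passed without siNfe2l1 library 1 (0.113 for Ccl2 and 0.184 for Ccl7), without library 2 of the cells given both siRNAs (0.0888 and 0.0777) or without their library 4 (0.0814 and 0.0674), which left 2 members lower each time, and without their library 1 Ccl2 did not pass (0.0919).

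Markers differed in that comparison as well. The fibroblast and adipose precursor sum spanned 4921 to 5734 CPM with both siRNAs and 9706 to 10297 CPM with siNfe2l1, with 10 of 11 lower and 0 higher. Macrophage markers were lower for 10 of 13 and endothelial markers for 8 of 10, with none higher, and the part of these markers was not tested.

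Under cholesterol, silencing Nfe2l1 alone raised Csf1 and Cxcl12 and lowered none of the 10, so none of the 7 members that cholesterol raised passed the test, with 11.3% of all genes called higher and 8.59% lower. Csf1 read 1080.2, 1118, 1192 and 1265 CPM in siNfe2l1 cholesterol libraries, against 1045, 965, 1010.4 and 1034 CPM in scramble cholesterol libraries, without overlap (log2 0.20 ± 0.05, adjusted p = 0.00312). Cxcl12 read 248, 270.5, 282 and 292 CPM in siNfe2l1 cholesterol libraries, against 212, 240.2, 237 and 269 CPM in scramble cholesterol libraries, with overlap (log2 0.19 ± 0.06, adjusted p = 0.0164). In a fit of these 8 libraries alone neither passed (adjusted p 0.127 for Csf1 and 0.212 for Cxcl12). Cxcl12 did not pass without scramble cholesterol library 1 (adjusted p = 0.137), siNfe2l1 library 3 (0.0584) or siNfe2l1 library 4 (0.0782).

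Cxcl1 read 422, 299.6, 182 and 150.4 CPM in siNfe2l1 cholesterol libraries, against 436, 292, 381 and 245 CPM in scramble cholesterol libraries. Ccl2 read 253, 199, 165 and 196 CPM and Il6 40.5, 30.1, 23.1 and 24.8 CPM in siNfe2l1 cholesterol libraries. Cxcl10 read 175, 155, 160.0 and 154 CPM in siNfe2l1 cholesterol libraries, against 177, 128, 138 and 132 CPM in scramble cholesterol libraries. All of these groups overlapped. The siNfe2l1 libraries of Cxcl1 were spread widely, with libraries 1 and 2 inside the scramble range and libraries 3 and 4 below it. The 95% intervals of the log2 fold changes were -0.86 to 0.14 for Cxcl1 (adjusted p = 0.319), -0.59 to 0.20 for Il6 (adjusted p = 0.522), -0.35 to 0.42 for Ccl2 (adjusted p = 0.92) and -0.26 to 0.58 for Cxcl10 (adjusted p = 0.633). Without siNfe2l1 cholesterol library 1, Cxcl1 (log2 -0.68, adjusted p = 0.0249) and Ccl7 (log2 -0.47, adjusted p = 0.0465) were called lower.

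Those 4 siNfe2l1 libraries also differed across the transcriptome. Their coordinates on that leading axis were 40.48, 34.25, 27.73 and 24.04, against 43.59, 39.36, 42.34 and 37.10 in scramble cholesterol libraries. Atf3 read 481, 290.0, 166 and 134 CPM in siNfe2l1 cholesterol libraries, so library 1 was highest and library 4 lowest for Atf3, for Cxcl1 and along that axis. The part of this spread in the members' values was not tested.

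**Figure D4:**
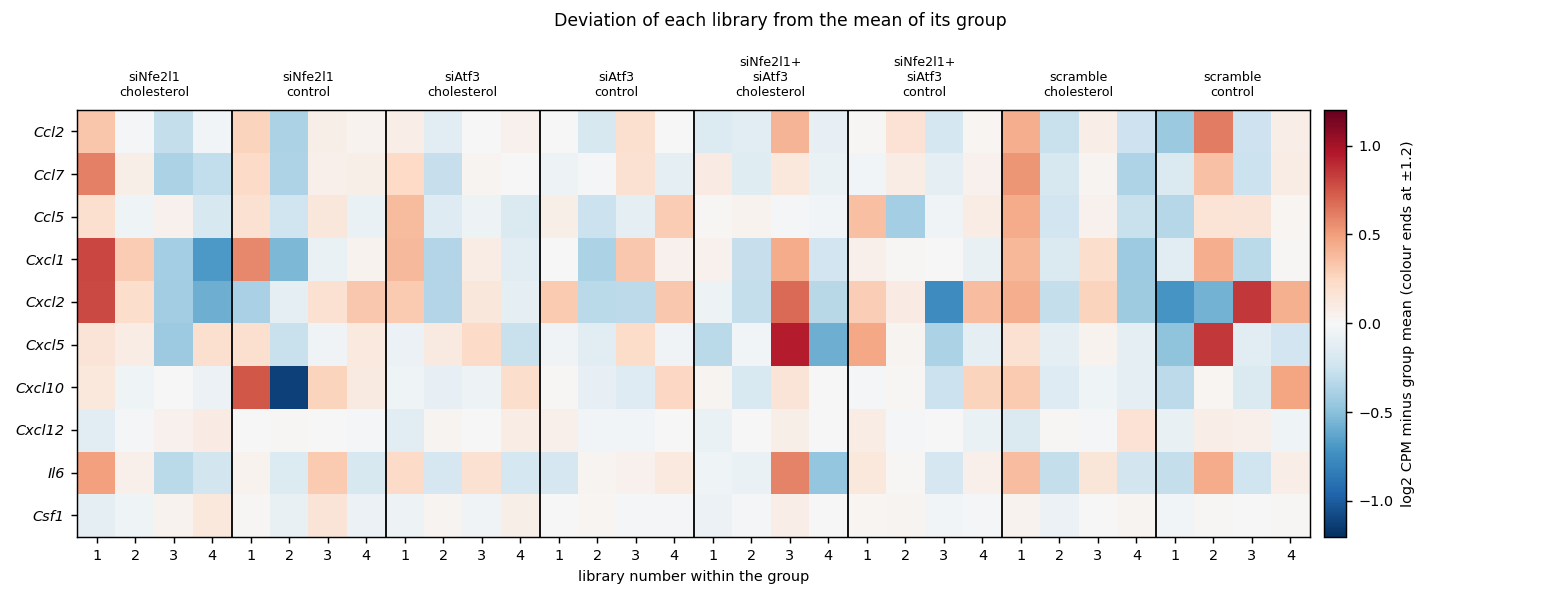
Log2 CPM of each member in each library minus the mean of its group. Cxcl1 and Cxcl2 deviate together in siNfe2l1 cholesterol libraries, library 1 lying 0.80 and 0.79 above the group mean, and library 3 of the cholesterol libraries with both siRNAs is high for Cxcl5 (0.94) and Cxcl2 (0.68).

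Under control treatment siNfe2l1 raised Csf1 and lowered Cxcl10, where 3.13% of all genes were called higher and 2.87% lower. Csf1 read 1212, 1127, 1332 and 1139.8 CPM in siNfe2l1 control libraries, against 1013, 1042, 1036 and 1047 CPM in scramble control libraries, without overlap (log2 0.22 ± 0.05, adjusted p = 0.00295). Cxcl10 read 34.2, 9.35, 24.5 and 21.9 CPM in siNfe2l1 control libraries, against 33.6, 42.5, 37.0 and 57.9 CPM in scramble control libraries. Library 1 of siNfe2l1 reached the scramble range and library 2 lay far below it. The log2 fold change was -0.93 ± 0.23 (adjusted p = 0.0115), and it did not pass without scramble control library 4 (-0.75, adjusted p = 0.068) or in a fit of these 8 libraries alone (adjusted p = 0.243). Ccl5 read 4.68, 3.50, 4.52 and 3.89 CPM in siNfe2l1 control libraries, against 2.24, 3.18, 3.16 and 2.90 CPM in scramble control libraries, without overlap, and just missed the threshold (log2 0.53 ± 0.17, adjusted p = 0.0516), which it passed without siNfe2l1 library 2 (adjusted p = 0.038). It also passed with library totals alone (0.0378), no filter on low counts (0.0253), the replicate block (0.0286), a fit of these 8 libraries alone (0.026) and the DESeq2 Wald test (0.0252). With DESeq2 size factors or limma-voom it did not pass (adjusted p up to 0.0664).

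With both siRNAs under control treatment, Cxcl12 and Csf1 were lower than in scramble, with 14.3% of all genes called lower and 12.9% higher. Cxcl12 averaged 385 ± 18.9 CPM with both siRNAs and 477 ± 26.8 CPM in scramble (log2 -0.31 ± 0.06, adjusted p = 5.85e-05). Csf1 averaged 914 ± 20.4 CPM with both siRNAs and 1034 ± 14.8 CPM in scramble (SD, n = 4 each; log2 -0.18 ± 0.05, adjusted p = 0.00459), a difference that library totals alone did not keep past the threshold (-0.08, adjusted p = 0.26). The fibroblast and adipose precursor sum spanned 19489 to 20419 CPM with both siRNAs and 25289.9 to 26543 CPM in scramble, with 7 of 11 lower and 0 higher. The macrophage sum spanned 588 to 635 CPM with both siRNAs and 280.2 to 327 CPM in scramble, with 12 of 13 higher and 0 lower, and the part of these markers was not tested. Relative to siNfe2l1 alone under control treatment, both siRNAs raised Cxcl10 and lowered Csf1, Ccl5 and Cxcl12, with 12.3% of all genes called higher and 14.5% lower. Cxcl10 read 48.8, 50.1, 41.3 and 59.7 CPM with both siRNAs, against 34.2, 9.35, 24.5 and 21.9 CPM with siNfe2l1, without overlap (log2 1.16 ± 0.23, adjusted p = 0.00033, and 0.0566 in a fit of these 8 libraries alone). Ccl5 read 3.31, 1.94, 2.50 and 2.73 CPM with both siRNAs, against 4.68, 3.50, 4.52 and 3.89 CPM with siNfe2l1, without overlap (log2 -0.66 ± 0.17, adjusted p = 0.0026). Cxcl12 had a log2 fold change of -0.24 ± 0.06 (adjusted p = 0.00133), and did not pass with library totals alone (-0.15, adjusted p = 0.0691).

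Macrophage markers moved with siNfe2l1. Their sum spanned 405 to 536 CPM in siNfe2l1 control libraries and 280.2 to 327 CPM in scramble control libraries, with 10 of 13 higher and 0 lower. It spanned 289 to 362 CPM in siNfe2l1 cholesterol libraries and 165 to 189 CPM in scramble cholesterol libraries, with 12 of 13 higher and 0 lower. Of the fibroblast and adipose precursor markers, 6 of 11 were higher and 0 lower with siNfe2l1 under cholesterol, as were 7 of 10 endothelial markers. Their part in the higher Csf1 and Cxcl12 and in the Ccl5 values was not tested.

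The test of whether siNfe2l1 acted differently with and without siAtf3 was passed by Cxcl10 in control-treated cells. Its interaction was 1.44 ± 0.31 on the log2 scale (adjusted p = 0.0119), and Cxcl10 was the single member called with edgeR, while 1.37% of all genes were called higher and 0.565% lower. In a fit of these 16 libraries alone the adjusted p of Cxcl10 was 0.067. Ccl5 had an interaction of -0.80 ± 0.24 that did not pass with edgeR (unadjusted p = 0.00191, adjusted p = 0.0762), but was called lower with DESeq2 (adjusted p = 0.0302), the replicate block (0.0399), no filter on low counts (0.038), library totals alone (0.0437) and the fit of these 16 libraries (0.0326). Under cholesterol the interaction of siNfe2l1 with siAtf3 called none of the 10 members with edgeR or DESeq2, with 1 member, Il6, at an unadjusted p of 0.0454 (log2 0.58 ± 0.28, adjusted p = 0.228), and 2.8% of all genes higher and 2.3% lower. Of the 16984 genes tested, 3554 had an unadjusted p under 0.05 there. The interaction of siNfe2l1 with cholesterol called 0 members with edgeR, with 0.206% of all genes higher and 0.0412% lower. At an unadjusted p under 0.05 it held 2 members, and 2589 of the 16984 genes tested. The members were Cxcl10 (log2 1.09 ± 0.31, unadjusted p = 0.00152, adjusted p = 0.0977) and Cxcl12 (log2 0.26 ± 0.08, unadjusted p = 0.00277, adjusted p = 0.115), and DESeq2 called Cxcl10 (adjusted p = 0.0279). The interaction of both siRNAs with cholesterol called none with edgeR or DESeq2 (6.52% of all genes higher, 7.21% lower), with 1 member, Csf1, at an unadjusted p of 0.0372. For that interaction 4772 of the 16984 genes had an unadjusted p under 0.05.

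In the order of the 8 group means, Cxcl1, Il6 and Ccl7 were highest in scramble cholesterol libraries, then siNfe2l1, both siRNAs and siAtf3 under cholesterol, and all 4 control groups lay below without overlap. Among the cholesterol groups of Cxcl1 and Il6 each neighbour in that order overlapped the next, whereas for Ccl7 the groups given siNfe2l1 and both siRNAs all but touched. Cxcl12 was lowest in siAtf3 cholesterol libraries (163 ± 10.4 CPM) and highest in scramble control libraries (477 ± 26.8 CPM), and the siAtf3, double and scramble groups under cholesterol did not overlap each other. Csf1 was highest in the siNfe2l1 groups and lowest in the siAtf3 groups, whichever the treatment.

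Other genes of the same pathways were read as 5 lists, chosen with earlier results of these data known. Their counts describe the listed genes and are no independent support. Of 28 other chemokines 17 were detected well enough to test, and in scramble cells 4 rose and 7 fell after cholesterol, where 32.9% of all genes were called higher and 32.3% lower (list median log2 -0.25). Cxcl3 and Cxcl11 averaged 0.195 CPM or less in each control group, so their cholesterol libraries carried them into the test. Ccl12 was the reverse case, at 0.164 CPM or less in each cholesterol group. Those that fell with the smallest p were Cxcl14, Cx3cl1, Cxcl16 and Cxcl9, the last an interferon-induced relative of Cxcl10. Cxcl14 averaged 23.7 ± 3.73 CPM in scramble cholesterol libraries and 87.3 ± 9.17 CPM in scramble control libraries (SD, n = 4 each; log2 -1.89 ± 0.10, adjusted p = 3.03e-16). Cxcl9 averaged 28.4 ± 2.11 CPM in scramble cholesterol libraries and 58.4 ± 4.91 CPM in scramble control libraries (log2 -1.04 ± 0.11, adjusted p = 2.42e-09). With siAtf3 under cholesterol 3 of the 17 were higher and 5 lower than in scramble, against 23% higher and 27.4% lower over all genes, so these chemokines as a list lay near the background. The macrophage-expressed Ccl3 averaged 3.50 ± 0.311 CPM in siAtf3 cholesterol libraries and 1.15 ± 0.487 CPM in scramble cholesterol libraries (log2 1.60 ± 0.21, adjusted p = 4.36e-08), while Cx3cl1 (log2 -0.61 ± 0.07) and Ccl8 (log2 -1.001 ± 0.13) were lower.

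Of 22 other cytokines 15 were tested, and 10 rose and 3 fell after cholesterol in scramble cells, against 32.9% higher and 32.3% lower over all genes (list median log2 2.07). Csf2, Csf3, Ifnb1 and Osm averaged 0.222 CPM or less in each control group, so their cholesterol libraries carried them into the test. A rise of theirs was fixed by the filter, and it lifts the count and the median. Tslp was the reverse case, at 0.3225 CPM or less in each cholesterol group. Clcf1, an Il6-family cytokine, averaged 86.1 ± 20.4 CPM in scramble cholesterol libraries and 17.3 ± 1.85 CPM in scramble control libraries (log2 2.31 ± 0.17, adjusted p = 5.15e-12). The alarmin Il33 averaged 37.2 ± 2.87 CPM in scramble cholesterol libraries and 8.82 ± 1.87 CPM in scramble control libraries (log2 2.07 ± 0.16, adjusted p = 7.07e-12). Tnf and Il1a rose from low levels, Tnf averaging 2.70 ± 0.516 CPM in scramble cholesterol libraries and 0.416 ± 0.0809 CPM in scramble control libraries (log2 2.68 ± 0.22). With siAtf3 under cholesterol 1 was higher and 7 were lower than in scramble (all genes 23% and 27.4%), among them Tgfb1 (log2 -0.55 ± 0.05), Ifnb1 (log2 -2.05 ± 0.38) and Clcf1 (log2 -0.84 ± 0.16). With siNfe2l1 under cholesterol 4 were higher and 0 lower (all genes 11.3% and 8.59%), led by Lif (log2 0.67 ± 0.12, adjusted p = 0.000234).

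Of 20 receptors and signal transducers 15 were tested, and 5 rose and 7 fell after cholesterol in scramble cells, against 32.9% higher and 32.3% lower over all genes (list median log2 -0.46). Il1r1, the receptor for interleukin-1, fell (log2 -1.58 ± 0.08), as did the scavenging chemokine receptor Ackr2 (log2 -2.69 ± 0.21) and the Csf1 receptor Csf1r (log2 -1.13 ± 0.11), and Lifr rose (log2 1.60 ± 0.09). With siAtf3 under cholesterol 1 was higher and 9 were lower (all genes 23% and 27.4%). Il6ra, which binds Il6, averaged 11.5 ± 0.908 CPM in siAtf3 cholesterol libraries and 30.9 ± 1.66 CPM in scramble cholesterol libraries (log2 -1.43 ± 0.08, adjusted p = 1.27e-17). With siNfe2l1 under cholesterol 9 were higher and 0 lower (all genes 11.3% and 8.59%), led by Csf1r (log2 0.77 ± 0.11), expressed by macrophages.

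The 20 transcription factors and feedback regulators, which hold NF-kB subunits, their inhibitors and Fos and Jun relatives, were all tested and all rose after cholesterol in scramble cells, where 32.9% of all genes were called higher and 32.3% lower (list median log2 1.40). Because earlier results were known when this list was chosen, its counts in this paragraph are no test against the share over all genes. Tnfaip3, a deubiquitinase that restrains NF-kB and is itself an NF-kB target, averaged 122 ± 11.4 CPM in scramble cholesterol libraries and 14.9 ± 1.42 CPM in scramble control libraries (log2 3.03 ± 0.10, adjusted p = 6.88e-23). The NF-kB subunits Relb (log2 1.79 ± 0.09), Nfkb2 (log2 1.04 ± 0.06) and Nfkb1 (log2 0.96 ± 0.06) followed. With siAtf3 under cholesterol 19 of the 20 were lower and 0 higher than in scramble (median log2 -0.57), where 27.4% of all genes were called lower and 23% higher. With both siRNAs 17 were lower and 0 higher (all genes 23.9% and 20.8%), and with siNfe2l1 3 were higher and 0 lower (all genes 11.3% and 8.59%). Nfkbib averaged 36.5 ± 1.17 CPM in siAtf3 cholesterol libraries and 63.5 ± 9.99 CPM in scramble cholesterol libraries (log2 -0.80 ± 0.09, adjusted p = 4.63e-09), and Zfp36l1, an RNA-decay factor, averaged 146 ± 10.9 CPM in siAtf3 cholesterol libraries and 216 ± 25.7 CPM in scramble cholesterol libraries (log2 -0.57 ± 0.08, adjusted p = 1.32e-07). Of these 20, 14 passed the interaction of siAtf3 with cholesterol, all with a smaller response, where 6.21% of all genes were called higher and 9.13% lower, led by Zfp36l1 (log2 -0.64 ± 0.11, adjusted p = 0.000141) and Rela (log2 -0.43 ± 0.09, adjusted p = 0.00167).

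Of the 18 interferon genes 1 rose and 13 fell after cholesterol in scramble cells, against 32.9% higher and 32.3% lower over all genes (list median log2 -0.68), while Cxcl10 rose. Stat2, a subunit of the interferon-activated factor, averaged 58.6 ± 8.94 CPM in scramble cholesterol libraries and 214 ± 7.86 CPM in scramble control libraries (log2 -1.87 ± 0.18, adjusted p = 1.04e-09). Irf9 (log2 -0.80 ± 0.08) and Oasl2 (log2 -1.43 ± 0.14) fell as well. Relative to scramble cholesterol libraries, 10 were higher and 3 lower with siAtf3 (all genes 23% and 27.4%), 12 higher and 0 lower with siNfe2l1 (11.3% and 8.59%), and 14 higher and 2 lower with both siRNAs (20.8% and 23.9%).

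The genes whose pattern over the 8 group means came closest to each member were found by the root mean square difference of log2 CPM, each gene centred on its own mean, among 10894 candidates. For Cxcl1 they were Hspa1b (0.28), Cxcl2 (0.32) and Ecel1 (0.38), with the difference in log2 units in brackets. For Cxcl2 they were Hspa1a (0.31), Cxcl1 (0.32) and Hspa1b (0.44), where Hspa1a and Hspa1b are the inducible Hsp70 genes. Ccl2 was closest to Fnip2 (0.07), Klf6 (0.08) and Junb (0.08), and Ccl7 to Etv3 (0.07), Myc (0.08) and Lims2 (0.09). Il6 was closest to Noct (0.11), P2ry2 (0.13) and Slc3a2 (0.15), and Cxcl10 to Il33 (0.24), Lmo7 (0.27) and Eps8 (0.33). Cxcl12 lay nearest to Tcf4 (0.06), Col6a2 (0.06) and P3h3 (0.06). Csf1 was closest to Ddx39a (0.05), Pdia5 (0.05) and Lamp2 (0.06), Ccl5 to Eepd1 (0.14), Cyth3 (0.15) and Spry4 (0.15), and Cxcl5 to Robo4 (0.04), Cdh13 (0.07) and Zfp760 (0.08). Among the members themselves, Ccl2 and Ccl7 differed by 0.12.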

How the data were processed

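The authors deposited a table of whole-number gene counts, which is the unit used here. Per the submitters' processing notes, fastp, HISAT2 2.0.5 and featureCounts 1.5.0-p3 were used with GRCm39, and polyA RNA was sequenced per the labels. Strand use and the treatment of multi-mapped reads are not given in the sources used here. Columns were matched to samples by name, an added C being read as cholesterol. Genes passing edgeR's filterByExpr (minimum count 10, 16984 of 56748) were scaled with TMM factors and fitted over all 8 groups (edgeR 4.0.16, R 4.3.3, quasi-likelihood test, 24 residual degrees of freedom), in 12 comparisons and 5 interactions, with Benjamini-Hochberg adjustment over all genes tested and a threshold of 0.05. CPM and RPKM were computed from the counts. The fit was tested on simulated data. No 2 libraries of a group agreed within sampling noise (chi-square per degree of freedom 2.64 or more in 48 pairs). Alternatives were DESeq2 size factors, library totals alone, no filter, limma-voom 3.58.1, DESeq2 1.42.0, a fit of only the groups compared, a replicate block, and leaving out each library.

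The members and gene lists were chosen with earlier results of these data known. The 10 members are named throughout. Of each other list, up to 4 called genes of smallest adjusted p are named for cholesterol in scramble cells and up to 3 elsewhere, except for a few genes not reported here. The 3 protein-coding genes of closest pattern, at an average log2 CPM of at least 2, are named per member. Promoter sequences came from RefSeq (GRCm38.p6), whose coordinates were not mixed with those of the counts, and the 4 members without an entry are Ccl2, Ccl7, Ccl5 and Cxcl5. Floors of 3 counts cover counting error only, whereas the 95% intervals of log2 fold changes include the spread between libraries.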

Additional observations from a re-analysis of the deposited data

Results flagged for a closer look

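In 80 sets of 4 libraries (10 members in 8 groups), chance alone flags about 1 in 20 groups. Ccl2 in library 3 of the cholesterol libraries with both siRNAs read 183 CPM, while the other 3 libraries of that group read 123 to 129 CPM. Ccl5 in siAtf3 cholesterol library 1 read 7.27 CPM, and the nearest other library of that group read 5.36 CPM. Cxcl10 in siAtf3 cholesterol library 4 read 137 CPM, and the nearest other read 114 CPM.

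The effect of siNfe2l1 on Cxcl10 under control treatment differed between cells with and without siAtf3, by 1.44 on the log2 scale (edgeR interaction, adjusted p = 0.0119). All 4 control libraries given both siRNAs (41.3 to 59.7 CPM) lay above the 4 given siNfe2l1 alone (9.35 to 34.2 CPM).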

How the results depend on the processing

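No called value changed sign under any alternative, in 2950 recomputed results: 2864 kept their side of the threshold, 49 no longer passed and 37 newly passed. Values that did not pass either way changed sign in 11 results with library totals alone, 4 with limma-voom, 1 with the replicate block and 107 when a library was left out. The cause of the changes was not tested.

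With library totals alone, the members called lower after cholesterol were 2 each in scramble, siNfe2l1 and siAtf3 cells (Csf1 joining, at log2 -0.15 in scramble cells, where the median of all genes shifted by -0.122). Of 16984 genes, 6804, 5893 and 5681 were called lower in the same order of cells. Under the same scaling siNfe2l1 control had 2 higher, both siRNAs under control 1 lower, both siRNAs under cholesterol 3 lower against scramble and 2 lower against siNfe2l1, and the siNfe2l1 by siAtf3 interaction in control 1 lower (Ccl5). Of 16984 genes, that scaling called 578 higher and then 1473, 2299, 2312 and 175 lower, in the same order. It also moved the share of all calls that were higher, with siAtf3 under cholesterol to 71.2% against 45.6% with TMM, and under control to 76% against 49.8%. With both siRNAs these shares were 72.5% against 46.6% under cholesterol and 74.8% against 47.5% under control, against siNfe2l1 66.2% against 43% under cholesterol and 73.2% against 45.9% under control. They were 72.5% against 56.9% for siNfe2l1 under cholesterol, 38.9% against 50.4% for cholesterol in scramble cells, and for the interactions 51.8% against 40.5% (siAtf3 with cholesterol), 60% against 47.5% (both with cholesterol), 46.8% against 70.7% (siNfe2l1 with siAtf3, control) and 21.3% against 54.9% (cholesterol). The 7 members lower with siAtf3 under cholesterol were 7 there as well, where 2712 of 16984 genes were called lower.

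With no filter on low counts, siNfe2l1 control had 2 higher, both siRNAs under cholesterol 3 lower against scramble and 2 against siNfe2l1, and the control interaction of the siRNAs 1 lower. Of the 34665 genes in that fit, 424 were called higher and then 3620, 2765 and 69 lower, in the same order. In fits of only the groups compared, siAtf3 cells had 2 lower after cholesterol (Cxcl5 joining), siNfe2l1 control 2 higher and 0 lower, both siRNAs against siNfe2l1 in control 0 higher, siNfe2l1 cholesterol 0 higher, both siRNAs under cholesterol 3 lower, and the control interaction of the siRNAs 0 higher and 1 lower. Of 16984 genes, these fits called, in the same order, 5018 lower, 660 higher and 591 lower, 2193 higher and 392 higher. For both siRNAs under cholesterol against scramble 3552 were lower, and for that interaction 466 were higher and 281 lower. Over all genes, such a fit of siNfe2l1 against scramble under cholesterol called 392 higher and 270 lower. The fit over all 8 groups called 1923 and 1459. Marker and list counts come from the fit over all 8 groups only, and those for siNfe2l1 under cholesterol depend on its shared spread. The DESeq2 Wald test gave 2 higher in siNfe2l1 control, 1 higher for the interaction of siNfe2l1 with cholesterol and 1 lower for the control interaction of the siRNAs. Over all genes it called 677 of 14348, 236 of 13031 and 160 of 13361, in the same order and direction.

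Leaving out 1 library at a time, members ranged from 1 to 2 higher and 0 to 1 lower (siNfe2l1 control), 2 to 3 lower (siAtf3 control), 0 to 2 higher (interaction of siNfe2l1 with cholesterol), 0 to 1 lower (control interaction of the siRNAs), 7 to 8 higher and 1 to 2 lower (both siRNAs, cholesterol against control), 1 to 2 higher and 0 to 2 lower (siNfe2l1 cholesterol), 6 to 7 lower (siAtf3 cholesterol) and 2 to 6 lower (both siRNAs under cholesterol, against scramble and against siNfe2l1). Shares over all genes are not given for these fits, so the ranges cannot be set against a background.

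Over all genes, correlations of same-numbered libraries ran from -0.043 to 0.265, and in 0 of 12 comparisons did all pairs exceed 0.1, so the numbers were not taken as pairs. Library 1 was still the highest on the leading axis and the lowest for Cxcl12 in all 4 cholesterol groups. In the siAtf3 and double cholesterol comparisons with scramble, 3 of 4 libraries correlated best with their own number. With the replicate block, siNfe2l1 control had 2 higher (Ccl5 joining) and the control interaction of the siRNAs 1 lower, where 596 of 16984 genes were called higher and 121 lower, in the same order. Both siRNAs under cholesterol gained Cxcl2 against scramble and Ccl5 against siNfe2l1 (adjusted p 0.0345), and no other count of members moved by over 1.5 times. A further fit, run after the data were seen, left out libraries chosen by the members' own values and is not used. Depth limits Cxcl2 in control libraries most.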
